A study of Caenorhabditis elegans with 63 samples.

Results

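Mature miRNAs were compared between whole worms that carried drsh-1(cdb263 cdb328) on chromosome I together with mir-80(cdb493) on chromosome III (2 libraries, called the double mutant below) and worms that carried mir-80(cdb493) alone (3 libraries). The members were chosen by genotype label and library type: every library of these 2 genotypes made with adaptors meant to minimize ligation bias was used, 5 of the 63 libraries of the study and 5 of the 41 libraries of that type. All 5 carried the mir-80(cdb493) allele, so the comparison varies drsh-1 on a background in which mir-80 was already mutated. The same table holds drsh-1(cdb263 cdb328) alone (3 libraries) and wild type (3 libraries), which carry a wild-type mir-80, and drsh-1 mutant and drsh-1 wild-type worms with other mir-80 alleles, in all 32 libraries of 12 groups that shared one fit. The labels give growth at 20 °C and no developmental stage for these worms, and they do not say what the cdb263, cdb328 or cdb493 alleles change in the sequence. They also do not say that replicates came from separate cultures. Each p-value of the shared fit measures the spread between replicate libraries pooled over the 12 groups, and that spread may be technical.

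In animals most miRNAs are cut from long primary transcripts by the Microprocessor, in which the RNase III enzyme Drosha, encoded by drsh-1 in Caenorhabditis elegans, works with the RNA-binding protein PASH-1. The cut releases a hairpin whose mature arm is loaded onto an Argonaute protein, while the other arm is mostly discarded. The star used here is part of the arm names as deposited, and an arm without it is called a main arm. A starred arm is not always the rarer one. In mir-80(cdb493), miR-788-5p* had 167, 520 and 224 reads, against 120, 150 and 77 of miR-788-3p. Mirtrons are released by splicing and do not need Drosha. miR-80 is an abundant miRNA of the miR-58 family, the worm relatives of Drosophila bantam, together with miR-58a, miR-81 and miR-82.

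The double-mutant libraries held 1225843 and 605494 miRNA reads and the mir-80(cdb493) libraries 960071, 2355231 and 1048948. Of the 276 arms in the table, which come from 138 hairpins, 207 had enough reads to be tested and 17 had no read in any of the 5 libraries. Replicate 2 of the double mutant stood apart. A set of 20 arms differed over 15-fold within groups of this table, and they made up 20.7% and 3.53% of miRNA reads in the double-mutant libraries, against 18.04%, 14.5% and 19.3% in the mir-80(cdb493) libraries. They are called unstable here, and the main counts of called arms are also given without that library. The most abundant of them, miR-58a-3p, had 172884 and 2088 CPM (counts scaled to the same miRNA total in every library) in the double mutant, against 145068, 111383 and 171366 CPM in mir-80(cdb493). Although unlike in these values, replicate 2 of the double mutant and replicate 3 of mir-80(cdb493) resembled each other in some others. The miR-44 family, with 3 unstable arms among 8 tested, summed to 18281 and 887 CPM in the double mutant, against 14724, 13437 and 560 CPM in mir-80(cdb493). The plant spike-in miR169a made up 7.26% and 0.170% of spike-in reads, against 6.53%, 6.57% and 0.111%. The part of these differences in the results was tested only by leaving out the library and the arms.

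Total miRNA was set against 10 plant spike-in RNAs. miRNA reads divided by the spike-in size factor were 731080 and 656880 in the double mutant, against 749902, 947078 and 814899 in mir-80(cdb493). The mean in the double mutant was 0.829 of the mean in mir-80(cdb493), and its 2 libraries lay below all 3 others. That order did not hold without the unstable arms, where the values were 579868 and 633665, against 614617, 809424 and 657218 (ratio 0.875, exact p = 0.4), nor per summed spike-in read, where they were 1.04 and 1.20, against 1.07, 1.58 and 1.03 (ratio 0.911, exact p = 1). The exact two-sided permutation test gave p = 0.2 for all arms over the size factor, the smallest p that 2 libraries against 3 allow, so this design cannot call such a difference. The labels do not give the amount of spike-in RNA. In whole worms, fewer cells of a type and less miRNA per cell cannot be told apart.

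With the fit scaled by TMM, which takes most arms as steady, 38 of 207 arms (18.4%) were called at an adjusted p under 0.05 in edgeR's quasi-likelihood test. Of these, 29 fell in the double mutant (14.0% of the arms tested), 28 of them by at least 2-fold, and 9 rose (4.35%), 5 of them by at least 2-fold. The falls had a median log2 fold change of -2.01 and the rises one of 1.03, against a median of 0.03 over all arms tested. None of the called arms was unstable. With only the 5 libraries fitted, 24 of the 29 falls (28 of them tested) and 5 of the 9 rises were called again. All 38 had double-mutant libraries that did not overlap the mir-80(cdb493) libraries, where 26.1% of all arms tested had both double-mutant libraries below the other 3 and 22.7% had both above. On the scale of the spike-ins, which moves the median arm by -0.24 on the log2 scale, 29 arms were called lower, 27 of them among the same 29, and 0 were called higher. Without replicate 2 of the double mutant, 22 arms were called lower and 2 higher, and without replicate 1, 21 lower and 5 higher, with a lone library assumed to vary like the other groups. The falls therefore held on both scales for 27 arms. All 9 rises kept a value above 0 on the spike-in scale but none was called there, so each is given as a rise relative to the other miRNAs.

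**Figure D1:**
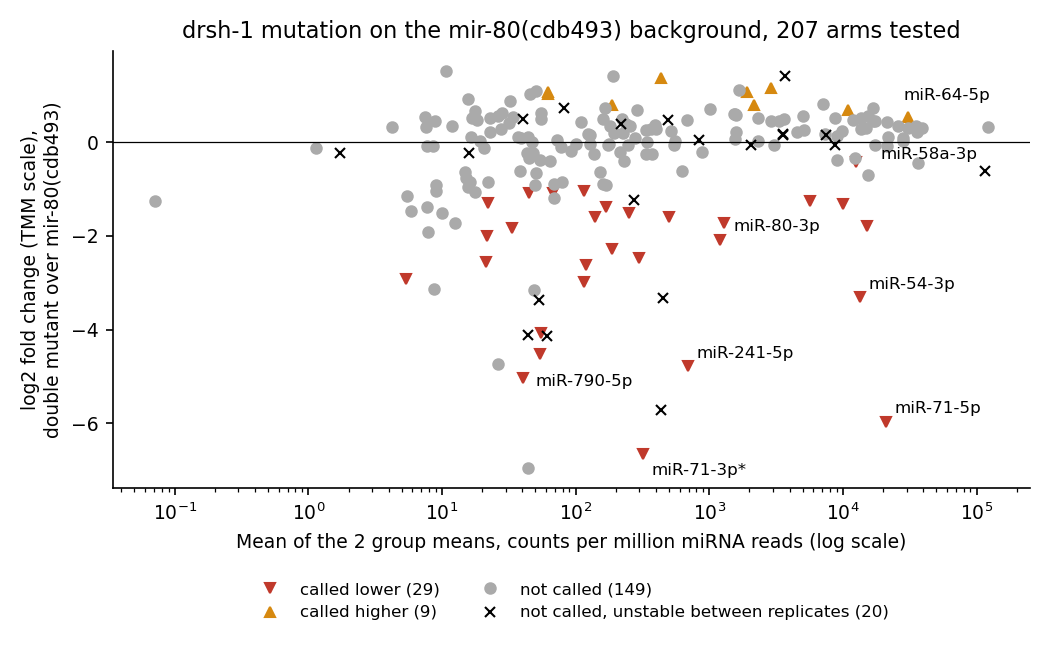
Each point is 1 arm: its log2 fold change in the double mutant over mir-80(cdb493) (TMM scale, vertical) against its mean level (horizontal, log scale), with 29 arms called lower, 9 called higher and 20 unstable arms crossed. The called falls reach -6.67 at miR-71-3p* and the called rises 1.38 at miR-255-3p.

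The largest called falls were those of both arms of mir-71. miR-71, which lengthens worm lifespan and acts in stress resistance, comes from an intron of ppfr-1 on the same strand (I:9379927-9380020, minus strand, WBcel235). miR-71-5p had 620 and 733 CPM in the double mutant, against 48544, 41588 and 33570 CPM in mir-80(cdb493). Every double-mutant library lay far below the lowest mir-80(cdb493) library, and the level was 62.7-fold lower (log2 fold change -5.97 ± 0.53 SE, adjusted p = 1.63e-08). Its star arm miR-71-3p* had 8.16 and 3.30 CPM (10 and 2 reads) in the double mutant, against 482, 772 and 657 CPM in mir-80(cdb493), a log2 fold change of -6.67 ± 0.90 (SE, adjusted p = 5.86e-06). Both strands of the same hairpin thus fell, at levels that differ widely.

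Of the let-7 family, whose members time the steps of larval development, 5 of 10 arms tested fell and 0 rose (median log2 fold change -0.72, against 0.03 over all arms). Among all 207 arms tested 14.0% were called lower and 4.35% higher. miR-241-5p, which acts with miR-48 and miR-84 in early larvae, had 42.4 and 57.8 CPM in the double mutant, against 1297, 1609 and 1109 CPM in mir-80(cdb493) (-4.78 ± 0.49 SE, adjusted p = 9.75e-08). Its star arm miR-241-3p* had 5.71 and 6.61 CPM, against 125, 98.9 and 87.7 CPM (-4.08 ± 0.74 SE, adjusted p = 2.52e-04). miR-84-5p had 2739 and 4178 CPM, against 7988, 8816 and 7003 CPM (-1.26 ± 0.24 SE), and its star arm fell by 1.30 on the log2 scale. miR-794-5p fell as well, with 5.71 and 6.61 CPM, against 37.5, 36.1 and 35.3 CPM (-2.57 ± 0.36 SE). The founding member did not pass the test: let-7-5p had 8390 and 10862 CPM in the double mutant, against 8854, 9495 and 7263 CPM in mir-80(cdb493) (0.13 ± 0.19 SE, adjusted p = 0.702, and -0.11 on the spike-in scale), and the groups overlapped. miR-48-5p was likewise not called (0.08 ± 0.15 SE). No arm of the lin-4 family was called among 4 tested. lin-4-5p, the other founding timing miRNA, had 17004 and 17508 CPM, against 20960, 17263 and 14902 CPM (-0.07 ± 0.26 SE).

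In the miR-72 family 4 of 6 arms fell and 0 rose (median -1.81), where 14.0% of all arms tested fell and 4.35% rose. The falls took in both arms of mir-72 and both of mir-73. miR-72-5p had 6082 and 7952 CPM in the double mutant, against 28659, 21366 and 19771 CPM in mir-80(cdb493) (-1.78 ± 0.29 SE, adjusted p = 5.62e-05). miR-73-3p had 367 and 580 CPM, against 1664, 2786 and 1385 CPM (-2.09 ± 0.39 SE, adjusted p = 3.37e-04). The third member, miR-74-3p, was not called (0.46 ± 0.22 SE) and stood higher in both double-mutant libraries.

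In the miR-51 family, which is needed in embryos, 3 of 12 arms fell and 0 rose, with a median of -0.02. The shares over all arms tested were 14.0% and 4.35%, and whether the family differed from them was not tested. miR-54-3p fell most among the family's main arms, with 2319 and 2723 CPM in the double mutant, against 23803, 25069 and 23879 CPM in mir-80(cdb493) (-3.31 ± 0.26 SE, adjusted p = 3.50e-09). The libraries of each group lay close together and the groups were 9.91-fold apart. Its star arm miR-54-5p* had 4.08 and 4.95 CPM (5 and 3 reads), against 99.99, 107 and 104 CPM (-4.52 ± 0.64 SE). The third called arm was miR-56-5p*, at -1.03 ± 0.25 (SE), whose main arm was not called.

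Other arms among the 12 largest falls belong to none of these families, and no role of theirs is given here. miR-790-5p had 1.63 and 3.30 CPM in the double mutant (2 reads in each library), against 79.2, 91.7 and 63.9 CPM in mir-80(cdb493) (-5.03 ± 1.06 SE, adjusted p = 0.00119). miR-248-3p had 26.9 and 24.8 CPM, against 203, 213 and 197 CPM (-2.99 ± 0.33 SE). miR-788-5p* and miR-77-5p* fell by 2.61 and 2.47 on the log2 scale. These are low-level arms, and all kept the sign and the call in every alternative run. Over all 29 falls the arms came from 22 hairpins, 13 were star arms, and 7 hairpins had both arms called: mir-54, mir-71, mir-72, mir-73, mir-84, mir-86 and mir-241. The share of star arms among all arms tested was not computed, so counts of star arms cannot be read as high or low. Of the 22 hairpins, 16 had both arms tested. Both arms were below 0 in 14 of these, which include the 7 with both arms called and so below 0 by selection. The exceptions were miR-81-3p at 0.11 and miR-90-3p at 0.18. The median over all arms tested was 0.03. Of the 22 hairpins, 9 lie on chromosome X and 7 within an intron, where the 121 hairpins tested include 42 on X and 43 within an intron. Without replicate 2 of the double mutant the 22 falls came from 16 hairpins, with 9 star arms and 6 hairpins with both arms called. The miR-72 family then had 3 falls, the miR-51 family 2 and the let-7 family 5.

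**Figure D2:**
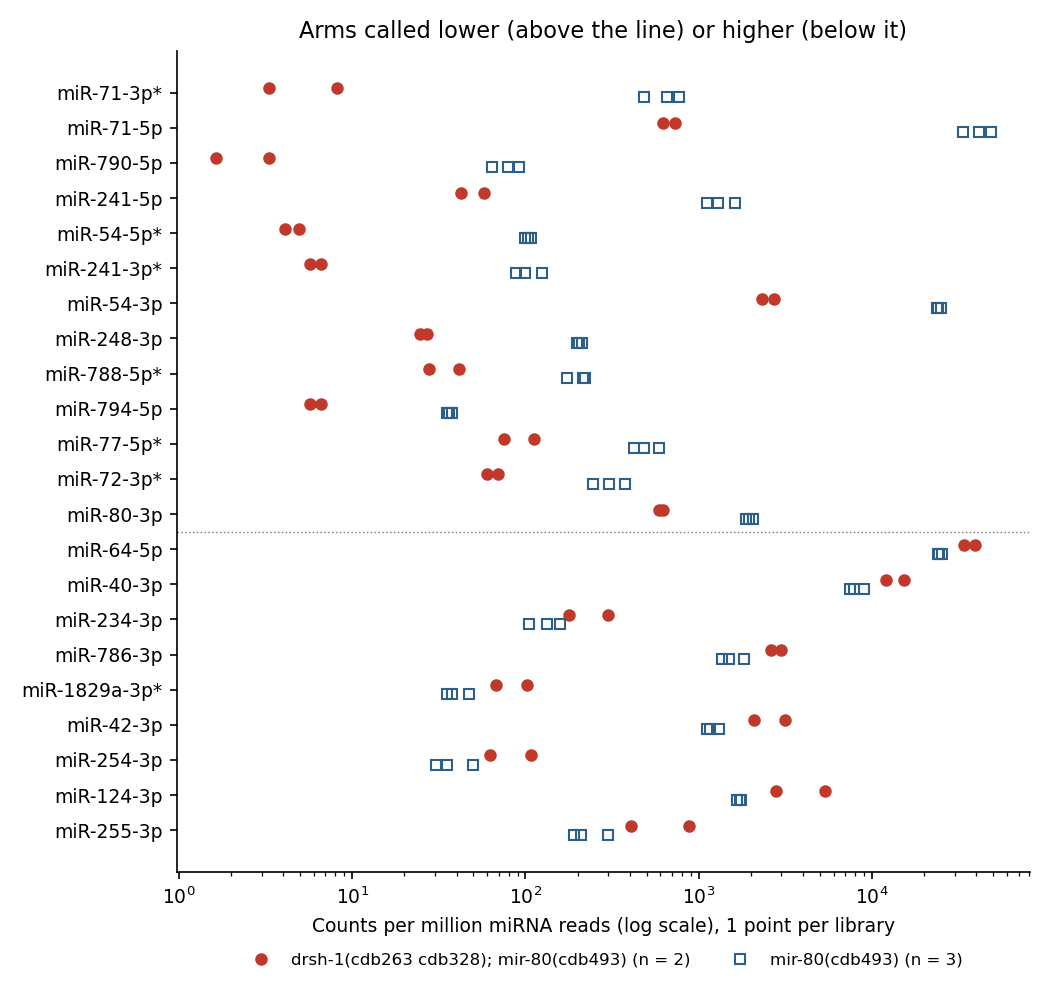
Level of each arm (horizontal, CPM on a log scale, 1 point per library) for the 12 largest called falls and miR-80-3p above the dotted line and the 9 called rises below it, with the 2 double-mutant libraries as filled circles and the 3 mir-80(cdb493) libraries as open squares. The groups do not overlap in any row, and miR-71-5p shows the widest gap among the abundant arms.

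The mutated gene itself was checked first against wild-type worms of the same series. miR-80-3p had 587 and 624 CPM in the double mutant and 2044, 1939 and 1873 CPM in mir-80(cdb493), against 72024, 62624 and 85831 CPM in wild type. It was 128-fold lower in the double mutant (log2 fold change -7.00 ± 0.26 SE) and 38.8-fold lower in mir-80(cdb493) (-5.28 ± 0.20 SE, adjusted p = 5.45e-16) than in wild type. Both genotype labels name a mir-80 allele, but they do not say what level of miR-80 it leaves. How reads shared by near-identical members of the miR-58 family were divided is not stated in the labels or files used, so what is left of miR-80-3p in these worms is uncertain in origin.

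Between the double mutant and mir-80(cdb493), what was left of miR-80-3p fell again, by 3.31-fold (719 and 378 reads, against 1962, 4566 and 1965 reads, a log2 fold change of -1.72 ± 0.19 SE, adjusted p = 3.69e-07). On wild-type mir-80 the same drsh-1 alleles gave 73270, 81634 and 63295 CPM in drsh-1(cdb263 cdb328) and 72024, 62624 and 85831 CPM in wild type, which overlap (-0.10 ± 0.16 SE, adjusted p = 0.803). The difference of the drsh-1 effects on the 2 backgrounds was -1.63 ± 0.25 on the log2 scale (SE, adjusted p = 3.06e-04). It was the only one of 207 arms called in that test (0.483%), with 7 arms at an unadjusted p under 0.05. When only the 11 libraries of the 4 groups were fitted, the difference was -1.71 with an adjusted p of 0.0556 and 0 arms were called. Over all alternatives the adjusted p of this difference lay between 2.16e-06 and 0.0556. Without replicate 2 of the double mutant it was -1.59 (adjusted p = 0.0265). The star arm miR-80-5p* had only 5 and 5 reads in the double mutant, against 14, 26 and 11 reads in mir-80(cdb493). It was not called on the TMM scale (-1.05 ± 0.27 SE, adjusted p = 0.0819). With so few reads this SE is narrower than the adjusted p allows. The other members of the family did not pass the test as main arms. miR-81-3p gave 0.11 ± 0.21 (SE) and miR-82-3p -0.70 ± 0.32 (SE, adjusted p = 0.135), and the unstable miR-58a-3p gave -0.62 ± 2.18 (SE).

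The drsh-1 effect on miR-80-3p took different values on the other mir-80 alleles of the series. It was -2.41 ± 0.17 (SE, adjusted p = 2.15e-10) on mir-80(cdb496), with 1510, 2150 and 1332 CPM in drsh-1; mir-80(cdb496) and 10262, 8410 and 8534 CPM in mir-80(cdb496). It was -1.64 ± 0.19 (SE) on mir-80(cdb530), whose drsh-1 partner carries cdb328 without cdb263. It was 0.20 ± 0.18 (SE) on mir-80(cdb494) and 0.07 ± 0.18 (SE) on mir-80(cdb495), neither of them called. The 3 alleles with a called fall were the 3 with the least miR-80-3p when drsh-1 was wild type: a mean of 1952 CPM for cdb493, 9069 CPM for cdb496 and 16053 CPM for cdb530, against 22773 CPM for cdb495 and 26520 CPM for cdb494. Between cdb493 and cdb496 the drsh-1 effects on miR-80-3p differed by 0.68 ± 0.24 (SE, adjusted p = 0.744), and 0 of 207 arms (0.0%) were called, with 4 at an unadjusted p under 0.05. DESeq2 called 0 as well. The differences from cdb494, cdb495 and cdb530 were not tested.

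**Figure D3:**
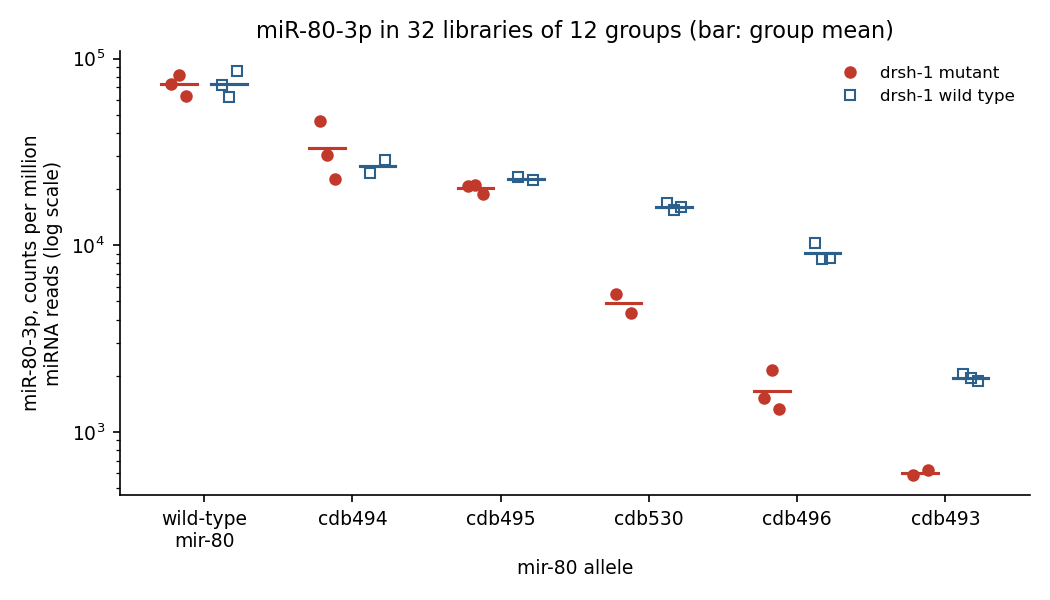
miR-80-3p level (vertical, CPM, log scale) in all 32 libraries of the mir-80 series, with drsh-1 mutant libraries left of their drsh-1 wild-type libraries for each mir-80 allele and a bar at each group mean (n = 2 or 3). The double mutant on cdb493 has the lowest levels, 587 and 624 CPM, and on wild-type mir-80 the groups overlap.

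Apart from miR-80-3p, the falls were largely those that the same drsh-1 alleles gave on wild-type mir-80. There 32 arms were called lower (15.5%) and 11 higher (5.31%). Of the 29 falls on mir-80(cdb493), 26 were among those 32, and all 29 had the same sign. The other 3 were miR-80-3p, miR-81-5p* and miR-65-5p, of which miR-81-5p* (-0.76, adjusted p = 0.0655) and miR-65-5p (-0.32, adjusted p = 0.0655) fell short of the threshold on wild-type mir-80. miR-71-5p gave -5.28 on wild-type mir-80, miR-241-5p -4.02 and miR-54-3p -3.33, beside -5.97, -4.78 and -3.31 on mir-80(cdb493). On mir-80(cdb496) 33 arms were called lower (15.9%), 23 of them among the 29. Of the 29, 19 were called lower on all 5 of the other mir-80 backgrounds and every one on at least 1 of them. Of the 22 falls called without replicate 2 of the double mutant, 21 were called lower on wild-type mir-80 and 17 on all 5.

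**Figure D4:**
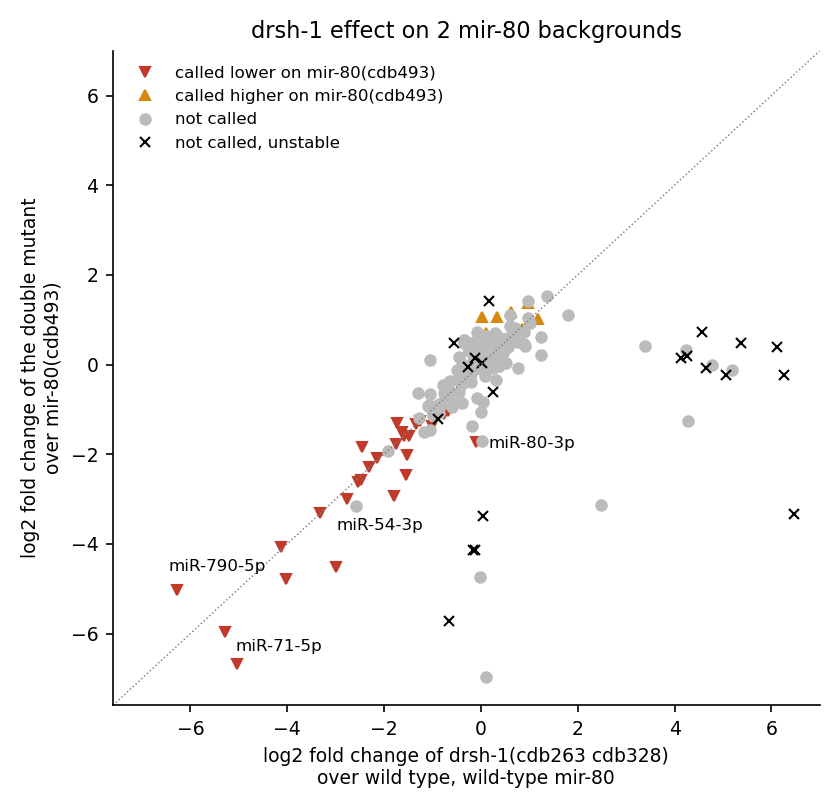
Log2 fold change of each of the 207 arms for the drsh-1 mutation on mir-80(cdb493) (vertical) and on wild-type mir-80 (horizontal), each against its own drsh-1 wild-type controls, with the dotted line where both are equal. Most called arms lie near the line, while miR-80-3p lies at -1.72 on the vertical and -0.10 on the horizontal axis.

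The rises were smaller, and each lost its call on the spike-in scale, where all 9 still had values above 0. Without replicate 2 of the double mutant only miR-64-5p and miR-42-3p were still called, and the other 7 were not. miR-64-5p, an abundant miRNA of the miR-64 family, had 34125 and 39280 CPM in the double mutant, against 23897, 24305 and 25378 CPM in mir-80(cdb493) (0.54 ± 0.12 SE, adjusted p = 0.00235). It was the only rise called on all 5 of the other backgrounds as well, although on the spike-in scale its value here was 0.31 with an adjusted p of 0.693. miR-124-3p, found in sensory neurons of worms, had 2774 and 5376 CPM, against 1736, 1661 and 1761 CPM (1.17 ± 0.32 SE, adjusted p = 0.0121). It was called on none of the other backgrounds, where its values lay between 0.63 and 0.85. miR-255-3p had the largest rise, with 404 and 879 CPM, against 191, 299 and 210 CPM (1.38 ± 0.33 SE, adjusted p = 0.00382). Both miR-124-3p and miR-255-3p were higher in replicate 2 of the double mutant than in replicate 1, and without replicate 2 they gave 0.78 (adjusted p = 0.236) and 0.89 (adjusted p = 0.176). miR-786-3p, which acts in the intestine in the defecation rhythm, had 2610 and 2971 CPM, against 1361, 1812 and 1499 CPM (0.80 ± 0.24 SE, or 0.84 with an adjusted p of 0.0585 without replicate 2). The remaining rises were those of miR-254-3p, miR-1829a-3p* and miR-234-3p, at 1.07, 1.03 and 0.80 on the log2 scale, beside 2 members of the miR-35 family. Without replicate 2 their adjusted p-values were 0.255, 0.216 and 0.328.

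The miR-35 family is made in the germ line and embryo and is needed for embryonic development. Of its 16 arms tested 2 rose and 0 fell, with a median of 0.27 on the TMM scale and 0.03 on the spike-in scale. Of all arms tested 4.35% rose and 14.0% fell. miR-42-3p had 2079 and 3151 CPM in the double mutant, against 1122, 1313 and 1156 CPM in mir-80(cdb493) (1.07 ± 0.20 SE, adjusted p = 3.64e-04). miR-40-3p had 12025 and 15283 CPM, against 7911, 7450 and 9007 CPM (0.70 ± 0.24 SE, adjusted p = 0.0407, or 0.170 without replicate 2 of the double mutant). miR-35-3p overlapped between groups and was not called (0.55 ± 0.31 SE). On wild-type mir-80 the drsh-1 effect on miR-42-3p was 0.02 ± 0.18 (SE), and the difference of 1.05 ± 0.27 had an adjusted p of 0.0892. It was called in 5 of the alternatives and not in the other 16, with adjusted p-values from 0.0127 upwards. On the other alleles it was 1.13 on cdb494 and 2.02 on cdb495, both called, and 0.27 on cdb496 and 0.07 on cdb530, neither called.

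Marker lists of embryos and of some cell types held few called arms, but the summed CPM of 2 of them was higher in both double-mutant libraries. CPM is a share of miRNA reads. Unstable arms made up 3.53% of reads in replicate 2 of the double mutant and 20.7% in replicate 1, so other arms take a larger share in replicate 2. The sums were not computed on the spike-in scale. All miR-35 family arms together summed to 97697 and 142723 CPM in the double mutant, against 81452, 91514 and 79483 CPM in mir-80(cdb493). The neuronal list of lsy-6, mir-124 and mir-791 had 4 arms tested and 1 called, and it summed to 2815 and 5427 CPM, against 1775, 1701 and 1787 CPM, nearly all of it miR-124-3p. The other neuronal main arms were low: lsy-6-3p had 17.1 and 24.8 CPM, against 9.37, 13.2 and 8.58 CPM, and miR-791-3p overlapped between groups. The muscle miRNA miR-1-3p had 21755 and 36408 CPM, against 31598, 27136 and 23084 CPM (0.03 ± 0.28 SE, below 0 on the spike-in scale). None of these main arms was at 0. No muscle arm was called. Of all arms tested 18.4% were called in either direction. The part of stage or cell makeup in the rises was not tested.

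Other lists gave few calls or none, where 14.0% of all arms tested were called lower and 4.35% higher. The miR-64 family had 1 rise and 1 fall among 10 arms (median 0.16, and -0.08 on the spike-in scale), and the miR-58 family 2 falls among 8 (median -0.81), those of miR-80-3p and miR-81-5p*. No arm was called among 8 of the miR-44 family, 8 of the miR-2 family or 6 of the miR-238 family. The medians of the miR-44 and miR-2 families were 0.17 and 0.13 on the TMM scale, and -0.16 and -0.12 on the spike-in scale. Of the mirtrons only mir-62 was in the table. miR-62-3p had 7166 and 11333 CPM in the double mutant, against 3723, 6043 and 5331 CPM in mir-80(cdb493). Both double-mutant libraries were above the other 3, but it was not called (0.82 ± 0.35 SE, adjusted p = 0.108).

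Hairpins that lie next to each other can share a primary transcript. Among all arms tested 14.0% were called lower and 4.35% higher. How many groups of neighbours would be called whole from these shares alone was not tested. With neighbours defined as hairpins of one strand within 2 kb, 14 groups had at least 2 main arms tested, 9 held a called main arm, and in 0 of the 9 were all main arms called the same way (7 groups and again 0 without replicate 2 of the double mutant). On chromosome X (13144691 to 13145094, minus strand, WBcel235, inside an intron of the antisense gene F09A5.3) miR-54-3p fell by 3.31 on the log2 scale, beside 0.34 ± 0.18 (SE) for miR-55-3p and -0.09 ± 0.19 (SE) for miR-56-3p. Levels show the same split: miR-55-3p had 37779 and 42129 CPM in the double mutant, against 31514, 32771 and 28096 CPM in mir-80(cdb493). On chromosome V miR-241-5p fell by 4.78 and its neighbour miR-48-5p, with 26385 and 32719 CPM, against 30202, 26018 and 24837 CPM, overlapped between groups. miR-73-3p fell beside miR-74-3p, and miR-794-5p beside miR-795-5p (-0.19 ± 0.30 SE). miR-80-3p (III:8865270-8865367, minus strand, intergenic) fell by 1.72 beside miR-238-3p at 0.46 ± 0.17 (SE, adjusted p = 0.0550). The neighbours mir-64 and mir-65, in an intron of gcn-1 on chromosome III, were called in opposite directions, at 0.54 for miR-64-5p and -0.43 ± 0.14 (SE, adjusted p = 0.0295) for miR-65-5p, and that of miR-65-5p was lost under most alternatives. Other neighbours moved the same way. miR-43-3p gave 1.11 ± 0.63 (SE, not called) beside the called miR-42-3p at 1.07. All 7 main arms of mir-35 to mir-41 were above 0, from 0.25 for miR-37-3p to 0.70 for miR-40-3p, the only one called. A ratio between neighbours does not depend on the scaling of libraries, but the differences between neighbours were not tested.

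**Figure D5:**
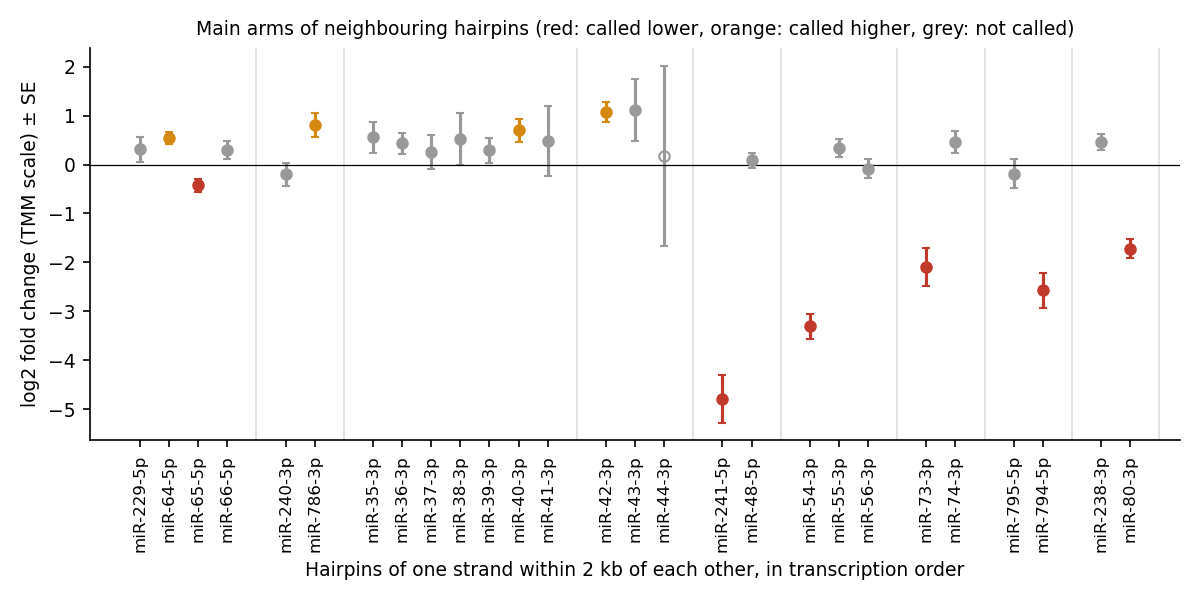
Log2 fold change ± SE (vertical, TMM scale) of the main arm of each hairpin in the 9 groups of neighbours that hold a called main arm, in transcription order, with falls in red, rises in orange, arms not called in grey and the unstable miR-44-3p as an open circle. In each group with a fall at least 1 neighbour was not called.

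The ratio of the 5p to the 3p arm was compared within each hairpin, which needs no scaling. Among 109 hairpins limma called 0 (0.0%), with a smallest adjusted p of 0.0910 and 10 at an unadjusted p under 0.05, of which 8 moved towards the main arm and 2 towards the star arm. The main arm gained on the star arm in 66 of 105 hairpins and lost in 39, with a median change of 0.24 on the log2 scale. This tally includes hairpins that hold an unstable arm, which moved in both directions. It also includes mir-64 and mir-65, whose star reads lay mostly in replicate 2 of mir-80(cdb493) (346 and 609 reads). A tally without these hairpins is not given. In mir-77, miR-77-5p* had 92 and 68 reads beside 37439 and 19723 of miR-77-3p in the double mutant, against 567, 1144 and 441 reads beside 33822, 100625 and 50077 in mir-80(cdb493). Its 5p to 3p ratio changed by -2.02 ± 0.60 on the log2 scale (SE, adjusted p = 0.0910), and that of mir-81 by -1.22 ± 0.35 (SE, adjusted p = 0.0910). The call of 0 depended on the pseudocount of 0.5, since 1 hairpin was called with 1 and 5 with 5.

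Some large fold changes rested on 1 library and were not called. miR-65-3p*, miR-64-3p* and the unstable miR-41-5p*, miR-36-5p*, miR-35-5p* and miR-34-5p* had between 147 and 2501 CPM in replicate 2 of mir-80(cdb493) and under 36 CPM in the other 4 libraries. The unstable miR-236-3p had 2341 CPM in replicate 1 of mir-80(cdb493) and between 53.9 and 114 CPM in the others. The unstable miR-87-3p, also not called, was instead high in 1 library of each group. It had 77.5 and 11169 CPM in the double mutant, against 81.2, 54.8 and 5264 CPM in mir-80(cdb493).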

How the data were processed

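Small RNA of whole worms was sequenced with adaptors meant to minimize bias, per the labels. The authors deposited a table of miRNA and spike-in reads. The submitters' processing notes name HTSeq for this work. Version, aligner, genome build, miRNA annotation and read filters are not given here in any source used. Of the authors' values for the 5 libraries, 24 were not whole. The table was therefore taken as estimated counts (expected counts) as deposited, and rounded.

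All 32 libraries of the mir-80 series (12 groups) entered one fit in edgeR 4.0.16 (R 4.3.3), with 1 coefficient for each group, TMM factors from the miRNA rows, filterByExpr (minimum count 10, total 15), glmQLFit and glmQLFTest. P-values were adjusted by Benjamini-Hochberg over the 207 arms tested, with a threshold of 0.05. The standard error is the one implied by the F statistic. For arms with few reads it can be narrower than the p-value and the read counts allow, as for miR-80-5p*. Differences of effects were contrasts of 4 groups. The arm ratio, log2((5p + 0.5)/(3p + 0.5)), was tested with limma 3.58.1 in hairpins with at least 10 reads in at least 2 of the 5 libraries. CPM values are relative to all miRNA reads of a library. Size factors from the 10 spike-ins were medians of ratios, computed without a package. DESeq2 1.42.0 was used only for alternatives, and SciPy 1.17.1 for permutation tests. Scripts were tested on simulated data.

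Unstable arms differed over 15-fold within at least 2 groups, with a value over 300 CPM. Replicates differed by at least 212 chi-square per degree of freedom, so no library was merged with another. The miRNA reads per library lay between 605494 and 2355231 and carry no molecular identifiers.

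Named were up to 12 called falls and rises of at least 10 CPM without overlap of libraries, both mir-80 arms, set reference miRNAs, and the leading arms of each list, difference and ratio. The members, lists and rule were chosen with earlier results of these data known. Arms named outside the rule (those that rested on 1 library, hairpin neighbours, the remaining marker arms) were chosen after their values were seen. Alternatives covered scaling, filter, test tool, libraries fitted, unstable arms, the replicate block and single libraries left out. Hairpins were placed by name in the WBcel235 annotation, used only for position and host gene.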

Additional observations from a re-analysis of the deposited data

Results flagged for a closer look

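The drsh-1 effect on miR-80-3p differed between the 2 mir-80 backgrounds by a test of the difference itself. It was -1.72 on mir-80(cdb493) and -0.10 on wild-type mir-80, a difference of -1.63 ± 0.25 on the log2 scale (SE, edgeR adjusted p = 3.06e-04). Both double-mutant libraries, at 587 and 624 CPM, lay below the 3 mir-80(cdb493) libraries, at 2044, 1939 and 1873 CPM. Groups of 2 and 3 libraries are too small for a check of single outlying libraries.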

How the results depend on the processing

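Fewer or more arms were called under these settings. For the drsh-1 effect on mir-80(cdb493), 24 arms were called without replicate 2 of the double mutant, and leaving out single libraries gave 24 to 36 calls, against 38. With the unstable arms left out, 44 of 187 arms were called (14 higher, 30 lower). Alternatives added after seeing the data gave 26 calls (7 higher, 19 lower) without the unstable arms and without that replicate, and 29 (0 higher, 29 lower) without the unstable arms on the spike-in scale. On wild-type mir-80, 24 arms were called on the spike-in scale and 28 to 36 when single libraries were left out, against 43. The difference between these backgrounds, with 1 arm called, gave 2 without a filter, 2 without unstable arms, 2 with all 41 libraries, 3 with DESeq2 (miR-80-3p, miR-42-3p and the unstable miR-236-3p) and 0 with only the groups compared; leaving out single libraries gave 1 to 2. The fall of miR-80-3p kept its call in every alternative run, between -1.40 and -1.96. The arm ratio gave 1 hairpin with a pseudocount of 1 and 5 with 5. Causes were not tested, beyond fewer libraries or arms entering a fit. No called value of a named arm changed sign. Some uncalled values near 0, and that of the unstable miR-58a-3p, did, and none was called there either. On the spike-in scale, with all arms and without the unstable ones, miR-81-3p gave -0.0966 and -0.0966, let-7-5p -0.1147 and -0.1148, and miR-1-3p -0.1914 and -0.1915. miR-1-3p also gave -0.00574 with DESeq2 size factors, -0.00575 with DESeq2, -0.00492 with only the groups compared and -0.0658 with the replicate block. lin-4-5p gave 0.0401 without a filter. Leaving out single libraries gave miR-81-3p -0.0315 to 0.351, miR-58a-3p -6.32 to 0.360, lin-4-5p -0.230 to 0.280 and miR-1-3p -0.234 to 0.204, where the upper values of miR-81-3p and lin-4-5p also lack the unstable arms. The medians of the miR-64, miR-2 and miR-44 families are above 0 on the TMM scale and below 0 on the spike-in scale. Whether replicate numbers pair the samples could not be settled. Deviations of same-numbered libraries correlated at r = 0.43 and -0.33. Replicate 2 of the double mutant and replicate 3 of mir-80(cdb493) gave r = 0.67, or 0.60 without the unstable arms. With 2 double-mutant libraries their deviations mirror each other, so 1 of them must go against any library that the other goes with. With the replicate block 31 arms were called (6 higher, 25 lower), and the block changed no count of differences or ratios. Depth limits the arms under 10 CPM, which had few reads in the double mutant.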
